A study of Rattus norvegicus with 9 samples.

Results

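Epithelial cells close the gap between neighbours with tight junctions, and 9 genes of these junctions were followed across all 9 arrays of a rat bladder study. The genes were chosen by name, with earlier results of these data known. Every array probe was taken whose accession maps to Cldn1, Cldn3, Cldn4, Cldn7, Cldn8, Ocln, Tjp1, F11r or Cdh1. These 9 genes have 10 probes, of 15168 named genes and 30367 probes on the array, and all 9 passed the filter on dim probes and were among the 11049 genes tested. The claudins and occludin span the membrane, F11r encodes the junctional adhesion molecule JAM-A, and Tjp1 encodes the scaffold protein ZO-1. Cdh1 encodes E-cadherin, which belongs to the adherens junction just below and not to the tight junction. Tjp1 is also known from endothelium and other tissues, so the name epithelial fits it less closely than the claudins.

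In a tight junction, claudins of neighbouring cells pair across the gap and set which ions pass, while occludin and JAM-A border and regulate the strands. ZO proteins anchor the strands to actin, and E-cadherin holds the cells together so that the strands can form. In the bladder these junctions lie between the umbrella cells of the urothelium and, with the uroplakin plaques of their surface, keep urine out of the wall.

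Total RNA of female rat bladder was hybridised to single-colour arrays, 3 per group, all at 3 weeks. The first group had partial bladder outlet obstruction (pBOO), with the upper urethra tied over a catheter, and received tolterodine, an antagonist of muscarinic receptors. The second had pBOO alone, and the third a sham operation with the urethra left untied. Strain, age, drug dose and schedule were not stated in the labels. The series title concerns β-adrenoceptor signalling and matrix made by bladder muscle cells. The labels mention 5 specimens per group but not whether an array carries 1 animal or a pool, so p-values measure only the spread between arrays, which may be technical. The treatment protocol pairs the letters S and C with obstruction and sham operation the opposite way from the sample codes. The titles were followed, and exchanging the names pBOO and sham would turn the sign of pBOO minus sham and swap the other comparisons.

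Levels are log2 signals relative to an array's 75th percentile, which lay between 523 and 1441 intensity units. Depending on the array, 72.1% to 80.1% of its spots were called well above background, and 0 were saturated. Sham 1 stood apart from sham 2 and sham 3 (Pearson r across genes 0.966 and 0.976, against 0.994 between these), and genes are not independent replicates. Arrays with the same scan time in the file headers are taken as 1 slide. All pBOO arrays lay on slide 2 with sham 1. The first 2 tolterodine arrays lay on slide 1 with sham 2 and sham 3, and tolterodine 3 on slide 3 alone. Tolterodine and pBOO arrays therefore shared no slide, and a fit with slide as a block links them only through sham.

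The stretch of genome just upstream of a gene's start is where much of its control sits, and RefSeq (build GRCr8) gave it for 7 of the 9 genes, from 250 bases before to 50 after the start. Cldn4 and Cdh1 had no entry matched. The letters CACCTG on either strand (CAGGTG on the other) are the E-box form bound by repressors of the Snail and ZEB families, known from E-cadherin. They occur in 4 of the 7 windows and in 18.8% of 33469 rat promoters. The 4 windows are shown because they hold these letters, which are in capitals.
Cldn3: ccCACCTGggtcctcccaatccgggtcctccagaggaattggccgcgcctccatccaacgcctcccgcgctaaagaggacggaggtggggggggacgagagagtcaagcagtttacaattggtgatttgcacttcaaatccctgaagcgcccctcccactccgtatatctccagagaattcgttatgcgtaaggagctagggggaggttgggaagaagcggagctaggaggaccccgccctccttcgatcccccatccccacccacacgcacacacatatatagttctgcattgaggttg
Cldn7: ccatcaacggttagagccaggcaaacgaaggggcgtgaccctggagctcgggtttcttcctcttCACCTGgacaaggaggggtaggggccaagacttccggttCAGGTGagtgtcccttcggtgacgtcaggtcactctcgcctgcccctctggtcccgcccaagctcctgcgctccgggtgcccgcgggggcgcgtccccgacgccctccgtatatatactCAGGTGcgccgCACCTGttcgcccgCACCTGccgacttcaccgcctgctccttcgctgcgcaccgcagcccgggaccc
Ocln: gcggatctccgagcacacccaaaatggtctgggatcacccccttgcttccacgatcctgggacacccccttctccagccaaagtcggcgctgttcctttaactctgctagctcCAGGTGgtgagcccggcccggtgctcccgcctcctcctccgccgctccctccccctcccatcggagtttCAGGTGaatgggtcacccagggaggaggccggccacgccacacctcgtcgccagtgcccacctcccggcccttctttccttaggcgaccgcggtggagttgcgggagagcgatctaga
F11r: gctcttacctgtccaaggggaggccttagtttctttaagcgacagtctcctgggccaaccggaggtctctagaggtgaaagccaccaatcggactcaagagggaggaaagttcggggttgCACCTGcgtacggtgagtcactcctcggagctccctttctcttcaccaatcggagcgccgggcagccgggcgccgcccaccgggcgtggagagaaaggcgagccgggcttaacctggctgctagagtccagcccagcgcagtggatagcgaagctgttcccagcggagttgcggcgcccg
These windows are chr12:27346498-27346797 (minus strand, Cldn3), chr10:55188420-55188719 (plus strand, Cldn7), chr2:33441149-33441448 (minus strand, Ocln) and chr13:86405979-86406278 (plus strand, F11r), each read along its gene. The Cldn7 window holds the letters 5 times, at -186, -147, -28, -17 and -3 from the start. The Ocln window holds them at -137 and -68, that of Cldn3 at -248 and that of F11r at -130. The windows of Cldn1, Cldn8 and Tjp1 hold none. The letters AACNGGTT on either strand (AACCNGTT on the other), known for grainyhead-like factors of epithelia, occur in the Tjp1 window alone, at -146, and in 2.10% of the promoters. No window holds both motifs. The Tjp1 window is 33.7% G and C, beside a median of 51.7% over all promoters. Whether it lies at the true start of the gene was not checked. It may not be a promoter, so neither its match at -146 nor its lack of CACCTG is read as a promoter feature. The 4 windows shown are 58.0% to 67.0% G and C. The share of 18.8% is therefore not from promoters of like composition. The letters GGGCGG, searched as well, occur in the windows of Cldn1, Cldn3, Cldn7 and F11r and in 33.1% of the promoters. A match describes letters and not a bound site. In RefSeq, Cldn3 and Cldn4 are neighbours with 2 pseudogenes and 0 protein-coding genes between them.

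Obstruction was accompanied by lower levels of Cdh1 and of the claudin genes Cldn3, Cldn4 and Cldn7, and by a higher level of Cldn1, with Cldn3 at or near background in both groups. The call for Cldn1, also a dim gene, passed in 16 of 19 alternative processings and that for Cldn4 in 18 of 20. With tolterodine Cldn3 and Cldn7 were higher than in pBOO by margins that passed under every processing tried. Cldn7 then overlapped with sham, whereas Cldn3 stood above sham and Cdh1 below it. The size of the Cldn3 difference rests on dim sham spots, and the Cdh1 call passed in 11 of 20 alternatives. In whole bladder RNA, fewer cells of a type and less RNA per cell cannot be told apart.

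**Figure D1:**
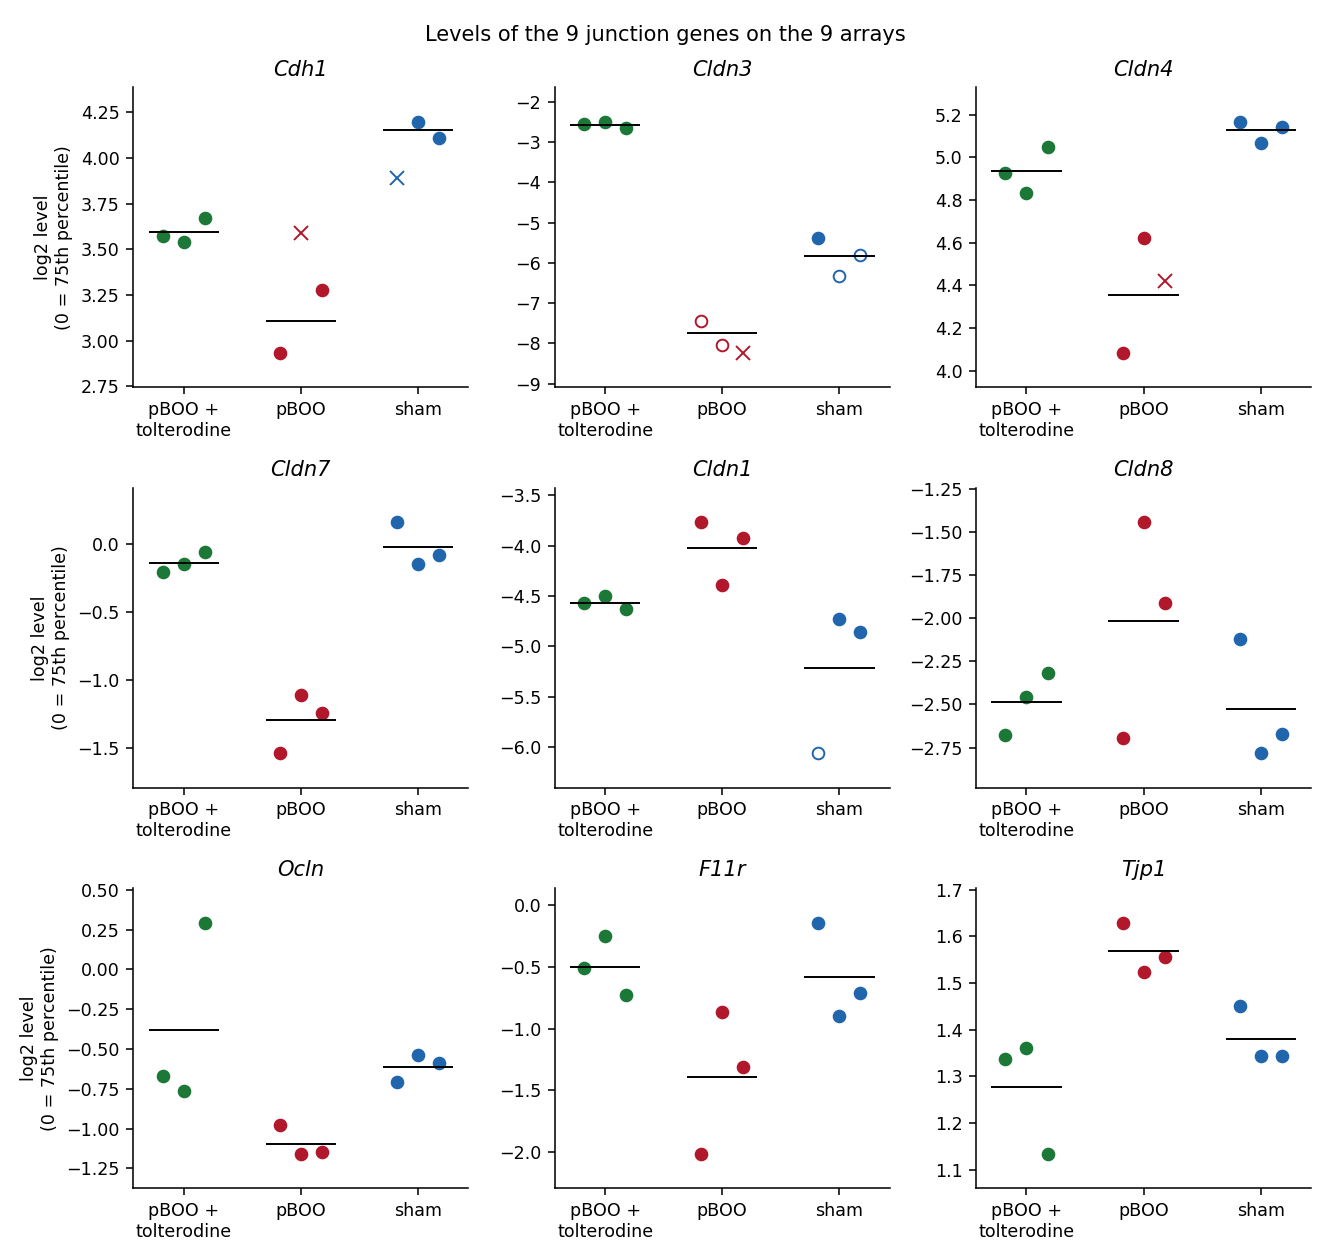
Levels of the 9 junction genes (log2 signal, 0 at an array's 75th percentile; each panel has its own axis) for pBOO + tolterodine, pBOO and sham. Filled points were well above background and open points were not, crosses were flagged and left out of the fit, and lines are group means without crosses. For Cldn3 the tolterodine arrays lie at -2.66 to -2.50, above every other array, and for Cldn7 the pBOO arrays lie at -1.54 to -1.11, below every other array.

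Cldn7, a claudin of many epithelia that also sits along the sides of cells, had levels of -0.20, -0.15 and -0.06 on the tolterodine arrays, -1.54, -1.11 and -1.24 on the pBOO arrays, and 0.16, -0.14 and -0.08 on the sham arrays. The pBOO arrays were all lower than the other 6, which overlapped among themselves. Cldn7 fell by 1.28 in pBOO relative to sham (log2, SE 0.14; adjusted p = 0.000225), a 2.42-fold lower level. It rose by 1.16 with tolterodine relative to pBOO (SE 0.14; adjusted p = 0.000333), a 2.24-fold higher level. Tolterodine minus sham was -0.11 (SE 0.14; adjusted p = 0.584). Both calls passed in every alternative run, over -1.46 to -1.14 in 20 for pBOO minus sham and 0.99 to 1.39 in 19 for tolterodine minus pBOO. Within slide 2 pBOO minus sham was -1.46. Cldn7 is the gene whose window above holds the E-box letters 5 times, and a link between these letters and its levels was not tested.

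Cldn3, a claudin that tightens the barrier, was well above background on the tolterodine arrays at -2.55, -2.50 and -2.66. It was well above background on none of the pBOO arrays, where it read -7.45 and -8.05 with -8.23 on a flagged spot, and on 1 of 3 sham arrays, sham 1 at -5.38. Sham 2 and sham 3 read -6.32 and -5.80. The 3 groups did not overlap, and the tolterodine arrays were the highest. With tolterodine the level was at least 11.1-fold higher than in pBOO (adjusted p = 1.25e-05). This bound, 3.47 on the log2 scale, is for the reported processing only. Under 18 alternatives Cldn3 was higher by 2.18 to 5.90, and all passed. Relative to sham it rose by 3.26 (SE 0.25; adjusted p = 0.000335), a value that rests on dim sham spots and was 1.21 with normexp background correction. In pBOO it passed as lower than sham (adjusted p = 0.00132), with a bound of 1.16-fold lower that exists only through sham 1. The bound uses the mean of all sham arrays, with sham 2 and sham 3 not well above background, so it is no firm lower limit. In that comparison 5 of the 6 arrays were not well above background, and without sham 1 neither group was, so no fold stands without it. Within slide 1 tolterodine minus sham was 3.53. The test of pBOO minus sham passed in all 19 alternatives run, under the same limit.

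Cldn4, the neighbour of Cldn3 in the genome, whose protein limits sodium passage in some epithelia, read 4.93, 4.83 and 5.05 with tolterodine, 4.08 and 4.62 in pBOO with 4.42 on a flagged spot, and 5.17, 5.07 and 5.14 in sham. The pBOO arrays were lower than all others, and the tolterodine arrays lay just under the sham arrays. Cldn4 fell by 0.77 in pBOO relative to sham (SE 0.17; adjusted p = 0.00888). It no longer passed with quantile scaling at -0.25 or within slide 2 at -0.81 (adjusted p = 0.156). It rose by 0.58 with tolterodine relative to pBOO (SE 0.17; adjusted p = 0.0287), which passed in 10 of 19 alternatives and was lost without tolterodine 1 (0.59), tolterodine 3 (0.53), pBOO 1 (0.31) or sham 3 (0.58). Tolterodine minus sham was -0.19 (SE 0.15; adjusted p = 0.396).

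Cdh1, which encodes the calcium-dependent adhesion protein E-cadherin, read 3.57, 3.54 and 3.67 with tolterodine. On the pBOO arrays it read 2.93 and 3.28, with 3.59 on the flagged spot of pBOO 2. On the sham arrays it read 4.20 and 4.11, with 3.89 on the flagged spot of sham 1. Sham was highest, and among unflagged spots the tolterodine arrays lay between the other groups without overlap. Cdh1 fell by 1.05 in pBOO relative to sham (SE 0.16; adjusted p = 0.00256), a 2.06-fold lower level, and passed in all 19 alternatives run. It rose by 0.49 with tolterodine relative to pBOO (SE 0.15; adjusted p = 0.0366), but only 6 of 19 alternatives kept that call, and with flagged spots kept the difference was 0.33 (adjusted p = 0.152). Each tolterodine array, pBOO 1, sham 2 and sham 3 were arrays without which it was lost, over 0.31 to 0.51. Tolterodine remained below sham by a difference of -0.56 (SE 0.15; adjusted p = 0.0359), which passed in 11 of 20 alternatives, was -0.60 within slide 1, and was lost without tolterodine 1 (-0.55), tolterodine 2 (-0.53), sham 2 (-0.51) or sham 3 (-0.60).

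Cldn1, a claudin needed for the skin barrier, went the other way. It read -4.57, -4.50 and -4.62 with tolterodine, -3.77, -4.39 and -3.92 in pBOO, and -6.06, -4.73 and -4.86 in sham, where sham 1 was not well above background. The pBOO arrays were the highest and the 3 groups did not overlap. Cldn1 rose by 1.19 in pBOO relative to sham (SE 0.33; adjusted p = 0.0179). The difference was 2.04 within slide 2, where sham 1 is the lone sham array, and 0.77 without sham 1 (adjusted p = 0.0107). The call was lost with normexp at 0.18, without pBOO 1 at 1.06 and without pBOO 3 at 1.14. With tolterodine the difference from pBOO was -0.54 (SE 0.33; adjusted p = 0.216), and from sham 0.65 (SE 0.33; adjusted p = 0.176), or 0.23 without sham 1. The first of these passed as a fall with slide as a fixed block at -1.78 (adjusted p = 0.00601), where sham 1 alone links the slides, with a random block at -1.30 (adjusted p = 0.0167), and without sham 1 at -0.54 (adjusted p = 0.0267).

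Cldn8, known from the kidney collecting duct, read -2.67, -2.46 and -2.32 with tolterodine, -2.70, -1.44 and -1.91 in pBOO, and -2.12, -2.78 and -2.67 in sham. The groups overlapped in every comparison. None passed, with pBOO minus sham at 0.51 (SE 0.30; adjusted p = 0.21), tolterodine minus pBOO at -0.47 (SE 0.30; adjusted p = 0.248) and tolterodine minus sham at 0.04 (SE 0.30; adjusted p = 0.936). Without pBOO 1, the lowest pBOO array, the first 2 became 0.85 and -0.80 and passed.

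Ocln, the gene of occludin, read -0.67, -0.76 and 0.29 with tolterodine, -0.98, -1.16 and -1.15 in pBOO, and -0.71, -0.54 and -0.59 in sham. The pBOO arrays were lowest without overlap, and tolterodine 3 was the single high array. Ocln rose by 0.72 with tolterodine relative to pBOO (SE 0.25; adjusted p = 0.0474). Without tolterodine 3 the difference was 0.38 (adjusted p = 0.0304), and the call was lost without any 1 of the pBOO or sham arrays (0.68 to 0.77). Of 19 alternatives 6 passed, and the value was 0.24 with slide as a fixed block (adjusted p = 0.262) and 0.53 with a random block (adjusted p = 0.127). Tolterodine 3 is also the array that had slide 3 to itself, so that array and its slide cannot be told apart. Ocln did not pass in pBOO relative to sham at -0.48 (SE 0.25; adjusted p = 0.15), though without tolterodine 3 that same -0.48 passed (adjusted p = 0.00592), as did -0.39 with slide as a fixed block (adjusted p = 0.0359). Tolterodine minus sham was 0.23 (SE 0.25; adjusted p = 0.531).

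F11r, the gene of JAM-A, read -0.51, -0.25 and -0.73 with tolterodine, -2.01, -0.86 and -1.31 in pBOO, and -0.14, -0.89 and -0.71 in sham. The pBOO arrays were below all tolterodine arrays but overlapped with sham. F11r rose by 0.90 with tolterodine relative to pBOO (SE 0.30; adjusted p = 0.041). This was lost without any 1 of the tolterodine arrays, without pBOO 1 or pBOO 3, or without sham 3 (0.59 to 1.01). In pBOO the difference from sham of -0.81 missed the threshold (SE 0.30; adjusted p = 0.0572), with 7 of 20 alternatives passing, slide as a fixed block at -1.25 among them (adjusted p = 0.0453). From sham the tolterodine arrays differed by 0.09 (SE 0.30; adjusted p = 0.86).

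Tjp1 read 1.34, 1.36 and 1.13 with tolterodine, 1.63, 1.52 and 1.56 in pBOO, and 1.45, 1.34 and 1.34 in sham. The pBOO arrays were the highest by a narrow margin. None of its comparisons passed, with pBOO minus sham at 0.19 (SE 0.11; adjusted p = 0.181), tolterodine minus pBOO at -0.29 (SE 0.11; adjusted p = 0.0542) and tolterodine minus sham at -0.10 (SE 0.11; adjusted p = 0.511). With quantile scaling the first passed at 0.37 (adjusted p = 0.0271). The second passed with quantile scaling at -0.40 (adjusted p = 0.0181), with median scaling at -0.35 (adjusted p = 0.0372) and without sham 1 at -0.29 (adjusted p = 0.0398). Its dimmer second probe read -1.92, -1.69 and -1.87, then -2.07, -1.96 and -1.96, then -2.23, -2.29 and -2.06 in the same order of groups. That probe gave 0.20 for pBOO minus sham (adjusted p = 0.215) and 0.17 for tolterodine minus pBOO (adjusted p = 0.294), so the probes differ in sign in the second comparison. In tolterodine minus sham it gave 0.37 (adjusted p = 0.0553), again opposite in sign. Which transcripts each probe reads was not analysed here.

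Of the 9 genes, 1 rose and 4 fell in pBOO relative to sham, beside 42.5% of all tested genes called in either direction (20.8% higher and 21.7% lower). Their median difference was -0.77, or -0.48 with Cldn3 at its bound, against -0.04 over all genes. With tolterodine relative to pBOO, 6 rose and 0 fell, beside 41.3% of all genes called (26.0% higher and 15.3% lower). The median was 0.58 against 0.11 over all genes. Leaving out an array moved these counts to 3 higher and 0 lower without tolterodine 1 or tolterodine 3, 2 higher and 1 lower without pBOO 1, 2 higher and 0 lower without sham 3, and 5 higher and 2 lower without sham 1. With slide as a fixed or as a random block 3 rose (Cldn3, Cldn7 and F11r) and 1 fell (Cldn1). Quantile scaling gave 3 higher and 1 lower, and median scaling 4 higher and 1 lower. Relative to sham, Cldn3 rose and Cdh1 fell with tolterodine, beside 24.4% of all genes called (17.8% higher and 6.59% lower), and the median was 0.04 against 0.09. The count of 2 was 1 without tolterodine 1, tolterodine 2, sham 2 or sham 3. Groups did not overlap for 7 of the 9 genes in pBOO and sham (55.7% of all genes), 8 in tolterodine and pBOO (58.7%) and 4 in tolterodine and sham (43.1%). These counts use unflagged spots, and Cdh1 is among the 8 only without the flagged spot of pBOO 2. Cldn3 is among the 7 though 5 of those 6 arrays were not well above background for it. The comparisons share arrays with each other. As the members and the lists below were chosen with earlier results of these data known, their counts and medians describe and do not test.

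**Figure D2:**
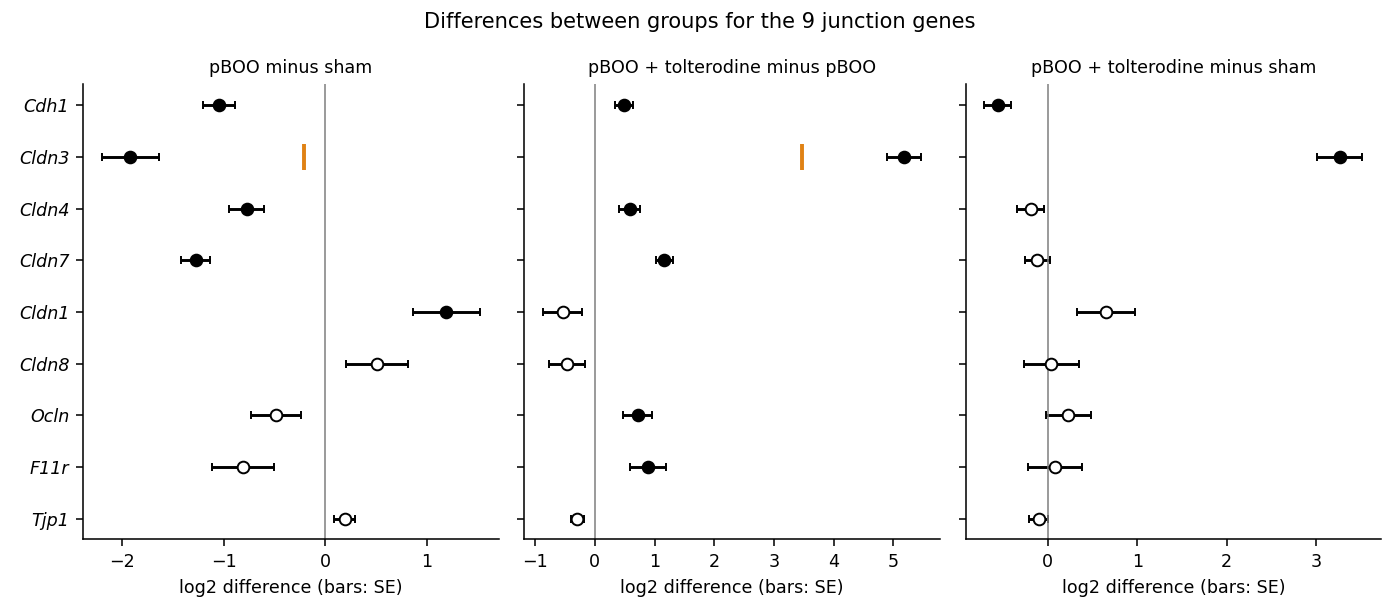
Log2 differences of the 9 junction genes in the 3 comparisons, with bars for the SE of the limma fit over 9 arrays (3 per group); filled points passed at an adjusted p under 0.05, open points did not, and the orange tick marks the bound for Cldn3. Cldn7 lies at -1.28 in pBOO minus sham and at 1.16 in tolterodine minus pBOO, and Cldn3 exceeds every other member in both comparisons with tolterodine.

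**Figure D3:**
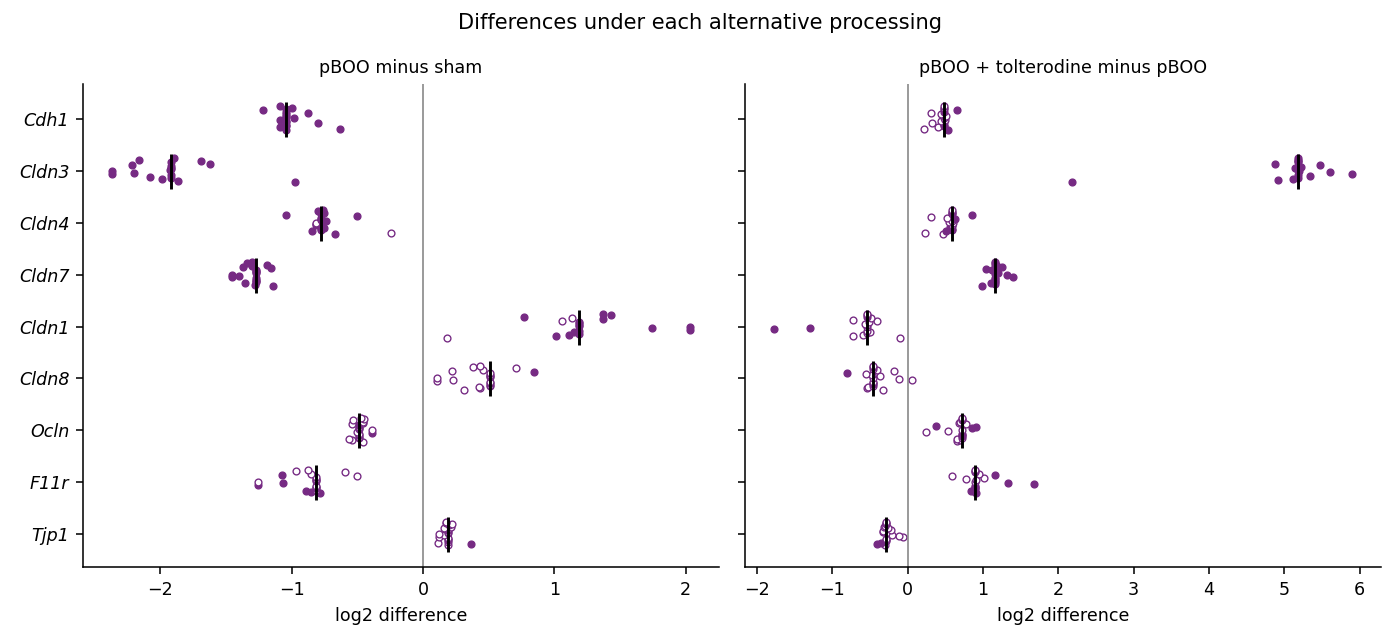
Log2 differences of each member under every alternative processing or left-out array in pBOO minus sham (left) and tolterodine minus pBOO (right); filled points passed, open points did not, and black ticks mark the reported value. Cldn7 and Cldn3 are filled throughout in both panels, while Cdh1 is filled in all 19 on the left and in 6 of 19 on the right.

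Counts in the lists below stand beside the shares of all tested genes called. These were 42.5% in pBOO minus sham, 41.3% in tolterodine minus pBOO and 24.4% in tolterodine minus sham. Among 9 other claudin genes measured, 4 rose and 0 fell in pBOO relative to sham. Cldn5, the claudin of blood vessel endothelium, rose by 2.20 (SE 0.12; adjusted p = 9.56e-06). Cldn11 also passed, and as it was well above background on no sham array and had no bound above 1 it gets no fold. With tolterodine relative to pBOO 4 rose and 2 fell. Cldn2, which forms a sodium channel in leaky epithelia, was at least 2.71-fold higher than in pBOO (adjusted p = 0.00134) and at least 2.06-fold higher than in sham (adjusted p = 0.00246), and was well above background on no pBOO or sham array. Cldn19 rose by 1.09 (SE 0.22; adjusted p = 0.00424), while Cldn5 fell by 0.97 (SE 0.12; adjusted p = 0.000363). Relative to sham 7 rose with tolterodine and 0 fell. Cldn22 was at least 2.43-fold higher there, and Cldn5 rose by 1.23.

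The 16 other measured genes of tight junction proteins split, with 5 higher and 4 lower in pBOO relative to sham, and 6 higher and 6 lower with tolterodine relative to pBOO. Tjp3, the ZO scaffold found chiefly in epithelia, fell by 2.21 in pBOO (SE 0.24; adjusted p = 0.000191) and rose by 1.71 with tolterodine (SE 0.24; adjusted p = 0.000675). Jam2, an adhesion molecule of endothelium, rose by 1.56 in pBOO (SE 0.21; adjusted p = 0.000595). Cxadr, the coxsackie and adenovirus receptor, rose by 1.35 with tolterodine relative to pBOO (SE 0.20; adjusted p = 0.000848). Relative to sham 5 rose with tolterodine and 1 fell, with Amotl2 at 1.05 and the tricellular junction gene Marveld2 at 1.04.

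Polarity genes numbered 14, with 5 higher and 2 lower in pBOO, 3 higher and 0 lower with tolterodine relative to pBOO, and 2 higher and 1 lower relative to sham. Crb3, the apical Crumbs protein of epithelia, fell by 1.17 in pBOO (SE 0.19; adjusted p = 0.0017) and rose by 0.85 with tolterodine relative to pBOO (SE 0.19; adjusted p = 0.00795). Rab13, a small GTPase that delivers junction proteins, rose by 0.84 with tolterodine relative to pBOO (adjusted p = 0.00514). Crb2 passed in pBOO minus sham as well, but it was well above background in neither group and gets no fold. With tolterodine Crb2 was at least 1.41-fold higher than in sham, where Pals1, a Crumbs partner, rose by 0.54.

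The 13 other genes of the adherens junction showed 3 higher and 1 lower in pBOO, 1 higher and 2 lower with tolterodine relative to pBOO, and 3 higher and 1 lower relative to sham. Cdh2, the N-cadherin of muscle and nerve, rose by 2.50 in pBOO (SE 0.37; adjusted p = 0.000896) and fell by 1.92 with tolterodine (SE 0.37; adjusted p = 0.00353), opposite in sign to Cdh1 in both. Vcl, the actin linker vinculin, rose by 1.83 and fell by 1.66. Relative to sham Afdn, the linker afadin, rose by 1.75 with tolterodine and the mesenchymal cadherin Cdh11 by 1.54. Of 7 desmosome genes 0 rose and 2 fell in pBOO, beside 42.5% of all genes called. These were Perp, which fell by 1.01 (SE 0.13; adjusted p = 0.000513), and Pkp2, which fell by 1.00 (SE 0.25; adjusted p = 0.0113). With tolterodine relative to pBOO Perp rose by 0.75 and Evpl fell by 0.70, and relative to sham no desmosome gene passed.

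**Figure D4:**
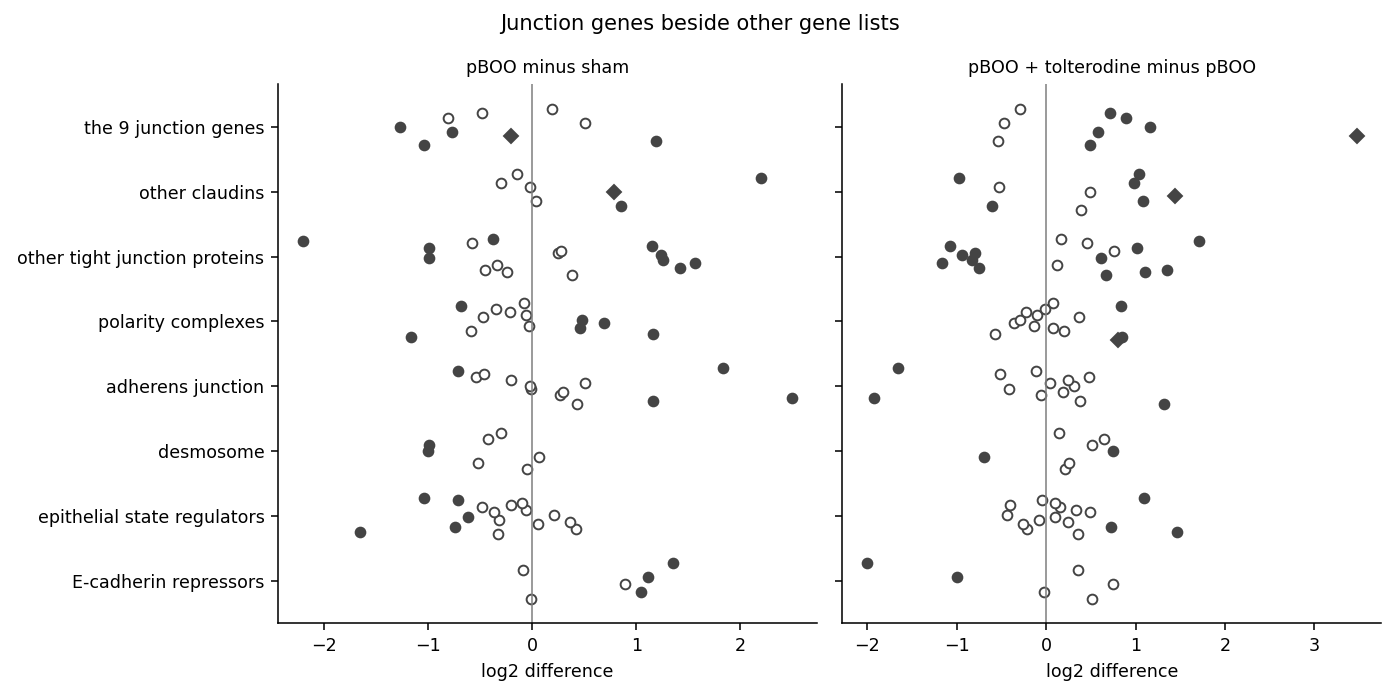
Log2 differences of the 9 junction genes and of 7 further gene lists in pBOO minus sham (left) and tolterodine minus pBOO (right); filled points passed, open points did not, diamonds are bounds for genes well above background in only 1 of the groups, and genes with no bound above 1 or well above background in neither group are left out. Epithelial state regulators have 0 filled points above 0 on the left and 3 on the right, and E-cadherin repressors have 3 filled points above 0 on the left. Over all genes 20.8% were called higher on the left and 26.0% on the right.

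Regulators of epithelial state numbered 16, with 0 higher and 5 lower in pBOO, and 3 higher and 0 lower with tolterodine relative to pBOO. The shares of all genes called in these comparisons were 42.5% and 41.3%. Elf3, an epithelial transcription factor, fell by 1.66 (SE 0.15; adjusted p = 0.000244) and rose by 1.47 (SE 0.15; adjusted p = 0.000373). St14, the membrane protease matriptase, fell by 1.04 and rose by 1.09. Grhl2, a grainyhead-like factor known to act on Cdh1 and claudin genes, fell by 0.62 in pBOO (SE 0.14; adjusted p = 0.00691) and was 0.10 in tolterodine minus pBOO (adjusted p = 0.581). With tolterodine it fell relative to sham, by a difference of -0.52 (SE 0.14; adjusted p = 0.0267). Ovol1 passed in no comparison, at -0.06, 0.33 and 0.27 in the order pBOO minus sham, tolterodine minus pBOO and tolterodine minus sham. Relative to sham 1 rose and 3 fell with tolterodine, among them Prss8 at -0.61 and Spint2 at -0.77. Grhl3 and Zeb1 had no probe matched to that name.

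The 6 measured genes known as repressors of E-cadherin had 3 higher and 0 lower in pBOO, 0 higher and 2 lower with tolterodine relative to pBOO, and 2 higher and 1 lower relative to sham. Zeb2 rose by 1.35 in pBOO (SE 0.19; adjusted p = 0.000806) and fell by 2.00 with tolterodine (SE 0.19; adjusted p = 9.4e-05). Twist1 rose by 1.11 and fell by 1.00. Snai2 rose by 1.04 in pBOO (SE 0.20; adjusted p = 0.0031), was -0.02 in tolterodine minus pBOO (adjusted p = 0.938), and was higher than in sham by 1.02 (adjusted p = 0.00722). Snai3 was higher with tolterodine than in sham by 1.64. These genes are also known from stromal cells, whose markers are given next.

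**Figure D5:**
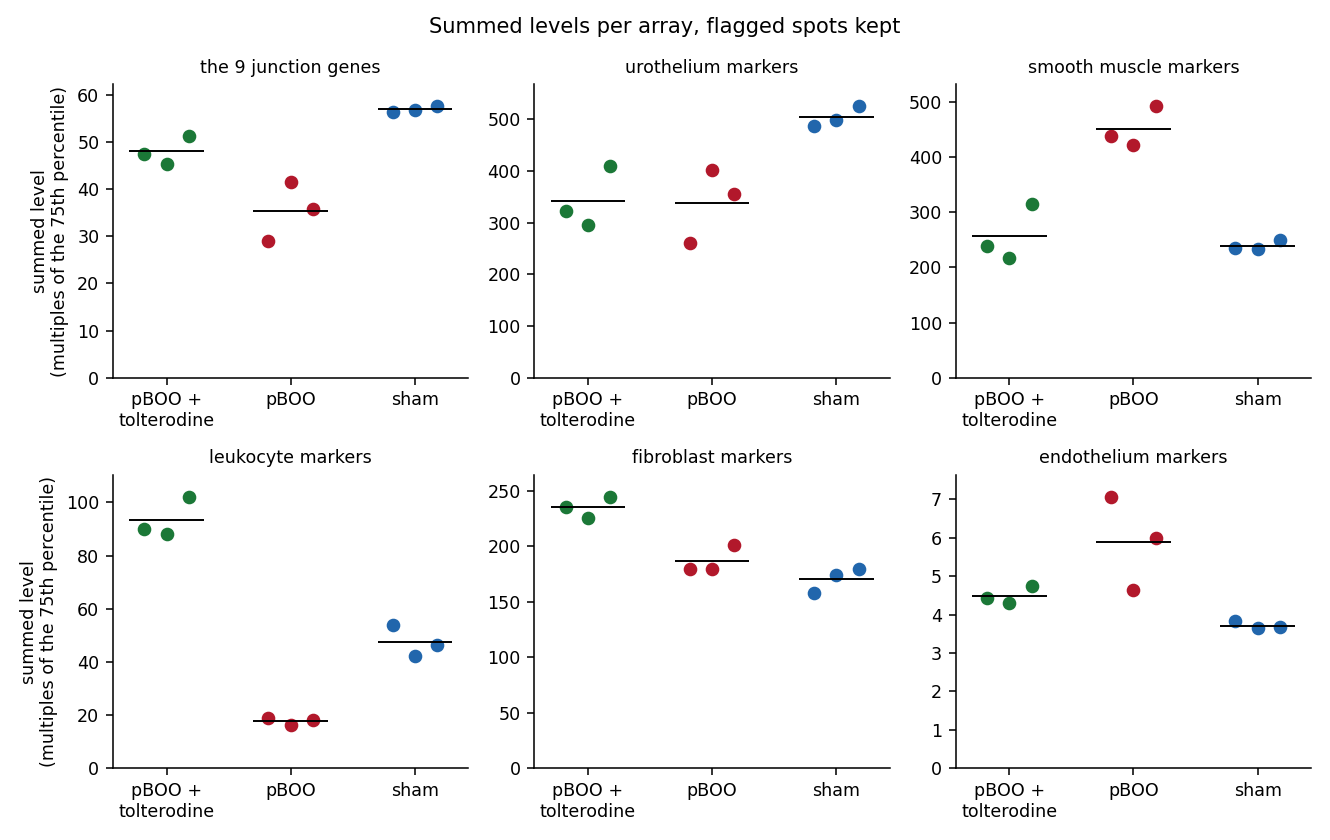
Summed level of each list per array, in multiples of the array's 75th percentile with flagged spots kept, for pBOO + tolterodine, pBOO and sham; lines are group means and every axis starts at 0. The members sum to 45.4 to 51.2 with tolterodine, 29.0 to 41.4 in pBOO and 56.4 to 57.6 in sham, while urothelium markers sum to 295 to 409, 261 to 401 and 487 to 525.

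The sum over the 9 genes, which the brightest probes dominate, was lowest in pBOO, and its 3 groups did not overlap. The sum over 13 urothelium markers was 295 to 409 with tolterodine, 261 to 401 in pBOO and 487 to 525 in sham, so tolterodine and pBOO overlapped and both lay below sham. Of 9 such markers tested, 0 rose and 4 fell in pBOO relative to sham, and 3 rose and 1 fell with tolterodine relative to pBOO. The basal keratin genes Krt14 and Krt5 fell by 1.86 and 1.98 in pBOO and rose by 2.60 and 0.98 with tolterodine. Krt20, a keratin of umbrella cells, was 0.80 in pBOO minus sham (adjusted p = 0.427). With tolterodine it fell by 4.98 relative to pBOO (SE 0.76; adjusted p = 0.00113) and fell by 4.18 relative to sham (SE 0.76; adjusted p = 0.006). Relative to sham 1 marker rose and 3 fell, and Krt18 fell by 1.22. Epcam, an epithelial adhesion gene, passed in no comparison, at -0.67 in pBOO minus sham (adjusted p = 0.19), -0.51 in tolterodine minus pBOO (adjusted p = 0.316) and -1.18 in tolterodine minus sham (adjusted p = 0.0542).

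The uroplakin gene Upk1b was tested in the main fit, on the brightest probe that the flags left there, and passed in no comparison. It was -0.02 in pBOO minus sham, -0.58 in tolterodine minus pBOO and -0.61 in tolterodine minus sham. Upk1a, Upk2 and Upk3a were left out of that fit, as flags left fewer than 2 unflagged arrays in some group. With flagged spots kept, the pBOO minus sham difference was 0.00 for Upk1a, -0.11 for Upk2 and -0.64 for Upk3a, of which the last passed (adjusted p = 0.037). With tolterodine Upk2 fell by 1.00 relative to pBOO (adjusted p = 0.0158) and fell by 1.11 relative to sham (adjusted p = 0.0186), and Upk1a fell by 0.56 relative to pBOO (adjusted p = 0.0423), in the direction opposite to the called members. Upk3a was 0.32 in tolterodine minus pBOO and did not pass (adjusted p = 0.259). In the same fit Krt19 fell by 1.57 in pBOO and rose by 1.45 with tolterodine. These genes of the urothelium list were picked out after their values were seen. The part of urothelial cell content in the members' differences was not tested.

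Markers of other cell types moved with the same groups. Smooth muscle markers summed to 218 to 316 with tolterodine, 422 to 493 in pBOO and 233 to 251 in sham, and of 7 tested 6 rose and 0 fell in pBOO and 0 rose and 6 fell with tolterodine relative to pBOO. Lmod1 rose by 3.38 in pBOO and fell by 2.69 with tolterodine. Mylk rose by 2.77 in pBOO and stayed 0.90 above sham with tolterodine, where Cald1 was 0.71 above sham, and Smtn fell by 2.64 relative to pBOO. Leukocyte markers summed to 88.0 to 102 with tolterodine, 16.3 to 18.8 in pBOO and 42.4 to 53.8 in sham. Of 8 tested 0 rose and 5 fell in pBOO, and 7 rose and 0 fell with tolterodine in each of its comparisons. Tyrobp fell by 1.47 and Aif1 by 1.32 in pBOO, and with tolterodine Cd163 rose by 2.45 and Tyrobp by 2.14 relative to pBOO.

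Endothelium markers summed to 4.29 to 4.74 with tolterodine, 4.64 to 7.07 in pBOO and 3.64 to 3.83 in sham, with 5 of 8 higher and 0 lower in pBOO, 1 higher and 4 lower with tolterodine relative to pBOO, and 4 higher and 0 lower relative to sham. Tek was at least 2.11-fold higher in pBOO than in sham and at least 2.31-fold lower with tolterodine than in pBOO, and Pecam1 was 1.03 above sham with tolterodine. Fibroblast markers summed to 225 to 245 with tolterodine, 179 to 202 in pBOO and 158 to 180 in sham, with 3 of 6 higher and 0 lower in pBOO, 1 higher and 1 lower with tolterodine relative to pBOO, and 4 higher and 0 lower relative to sham. Cd34 rose by 2.11 and Pdgfra by 1.00 in pBOO, and Col1a1 rose by 0.56 with tolterodine relative to pBOO. Mesothelium markers (Msln, Wt1 and Upk1b, the last also on the urothelium list) summed to 48.5 to 55.3 with tolterodine, 44.0 to 59.2 in pBOO and 62.0 to 67.6 in sham. With flagged spots kept, a brighter probe can stand for a gene than in the main fit. These sums did not follow Msln below, and which probe dominates them was not examined, so they are not read as mesothelial signal. In the main fit Upk1b and Wt1 passed in no comparison. Msln, the mesothelin gene, was measured only with flagged spots kept, where it fell by 1.46 in pBOO (adjusted p = 0.000247), and with tolterodine rose by 2.11 relative to pBOO (adjusted p = 3e-05) and by 0.66 relative to sham (adjusted p = 0.0219). The part of these cell types in the members' differences was not tested.

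The genes whose pattern over arrays lay nearest to Cdh1, by root mean square difference of centred log2 levels over its 7 unflagged arrays and among 10242 genes, were Hsd17b10 (0.052), Mien1 (0.054), Dcxr (0.054), Ptpn2 (0.060) and Washc3 (0.068). Among members with values on all of those arrays the nearest was Cldn7 at rank 2069 (0.34). For Cldn3, over 8 arrays and 10185 genes, they were Trh (0.54), Ppp1r1b (0.55), Pla2g7 (0.58), Gsta5 (0.61) and Sult1c3 (0.62), with Cldn7 at rank 1513 (1.80). On 4 of these 8 arrays (pBOO 1, pBOO 2, sham 2 and sham 3) Cldn3 was not well above background, so these distances rest in part on levels that were not measured above it. Cldn3 was taken as the member with the largest pBOO minus sham difference, which lies between such levels.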

How the data were processed

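Each deposited file holds the spot intensities of 1 array. Per the file headers, Feature Extraction 11.0.1.1 was used (the submitters' processing notes name 9.1), and the authors' processed signal is an intensity after background subtraction, without normalization between arrays. The authors' deposited flags (non-uniform, population outlier, well above background) hold 0 or 1.

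Here the intensity of 42877 non-control spots was put on the log2 scale, minus each array's 75th percentile. Flagged spots were set to missing and spots of a probe averaged. Probes well above background on at least 3 of 9 arrays, with 2 unflagged arrays per group, were kept. A probe counted as well above background on an array when at least 0.5 of its spots were. Accessions were named through RefSeq (GRCr8), giving 18005 of 30367 probes 1 symbol. The probe with the highest mean stood for its gene. One limma fit (limma 3.58.1 with data.table version 1.17.8, in R 4.3.3) over 9 arrays gave two-sided moderated tests, with Benjamini-Hochberg adjustment over 11049 genes and a threshold of 0.05. It was tested on simulated data. The array number limits precision, and the median SE was 0.171.

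For a gene well above background in 1 group and on no array of the other, the bound sets the first group's mean against, per array, the lowest level well above background or the gene's level, whichever is higher. Alternatives were another background correction, scaling, dim filter or probe rule, flagged spots kept, slide as a fixed or random block or within a slide, a replicate block, and each array left out.

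Named genes are the members, per list the 2 with the largest called difference in each comparison, 10 fixed genes (Epcam, Cldn5, Grhl2, Grhl3, Ovol1, Elf3, Snai2, Zeb1, Zeb2 and 1 that is not reported here), and the 5 nearest in pattern to Cdh1 and to the member with the largest pBOO minus sham difference. Members and lists were chosen with earlier results of these data known.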

Additional observations from a re-analysis of the deposited data

How the results depend on the processing

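Of 177 repeats of the members' pBOO minus sham values, 161 kept direction and side of the threshold, 11 newly passed, 5 no longer passed and 0 changed sign. For tolterodine minus pBOO these were 118, 7, 43 and 1 of 169, and for tolterodine minus sham 153, 1, 9 and 15 of 178. The count of members called moved by more than 1.5 times in these cases. In pBOO minus sham it was 3 within slide 2. In tolterodine minus pBOO it was 3 without the dim filter and 2 with the replicate block. In tolterodine minus sham it was 1 with normexp, with quantile scaling and with the replicate block. There it was also 1 without the dim filter, with probes well above background on all arrays and with flagged spots kept. With 1 array left out it ran over 4 to 6 in pBOO minus sham, 2 to 7 in tolterodine minus pBOO and 1 to 2 in tolterodine minus sham.

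Same-numbered arrays deviated from their group means with correlations of -0.08 to 0.18 over 9 pairs, beside -0.18 to 0.16 over 18 other pairs, so the numbers were not taken as pairs. With the replicate block the members called were 5, 2 and 1, and the genes called 4349, 4226 and 2332, in the order pBOO minus sham, tolterodine minus pBOO and tolterodine minus sham.

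Over all genes normexp called 3026, 3000 and 961 in the same order. In pBOO minus sham 2853 were called within slide 2. In tolterodine minus sham 4486 were called with slide as a fixed block, 4279 with a random block and 5854 within slide 1. With 1 array left out the genes called ran over 3406 to 5141, 3396 to 5336 and 1412 to 3785. Normexp lowered the share of higher calls in pBOO minus sham to 39.0% from 48.9% and its all-gene median to -0.14. Quantile scaling lowered that share in tolterodine minus pBOO to 52.6% from 62.9%. In tolterodine minus sham it lowered it to 58.1% from 73.0%, and array median scaling to 49.9%.

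The sign changes were all in differences that did not pass. In tolterodine minus pBOO, Cldn8 became 0.055 with slide as a fixed block. In tolterodine minus sham, Cldn8 became -0.015 with normexp, -0.10 with quantile and with median scaling, and with 1 array left out it ran over -0.088 to 0.24. Ocln became -0.15 with slide as a fixed block and within slide 1, and -0.11 without tolterodine 3. Tjp1 became 0.13 with the median of its probes and 0.0045 with slide as a fixed block and within slide 1. F11r became -0.053 with median scaling and ran over -0.070 to 0.31 with 1 array left out, while within slide 1 it was 0.42 and passed. The cause of these shifts was not tested, and within a slide fewer arrays enter. Where an arm keeps 1 array, that array is assumed to vary like the other groups.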

Other observations

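Other genes of the epithelial and junction lists, picked out after their values were seen, moved as Cldn7 did in both comparisons. Lsr, a protein of tricellular contacts, fell by 1.00 in pBOO relative to sham and rose by 0.62 with tolterodine relative to pBOO. Marveld3, a relative of occludin, fell by 1.00 and rose by 1.01. Krt7, a keratin of simple epithelia, fell by 1.81 and rose by 1.13, and Esrp1, an epithelial splicing factor, fell by 0.74 and rose by 0.72. In tolterodine minus sham these 4 genes were -0.38, 0.01, -0.68 and -0.02, and none passed. Jam3 and Mpdz, known from endothelium and other tissues, did the opposite, with rises of 1.26 and 1.15 in pBOO and falls of 0.83 and 1.07 with tolterodine.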
